A study of Mus musculus with 18 samples.

Results

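The genes of glycolysis and of the response to low oxygen were followed in the jaws of mice whose mandibular first molar had been extracted. The set held 37 of the 54532 genes in the deposited count table and was chosen by gene symbol. It comprised 14 glycolytic enzymes, 3 regulators of glycolysis, 4 glucose and lactate transporters, 3 genes of oxygen sensing and 13 targets of the hypoxia-inducible factors (HIF). All 37 were present and abundant enough to be tested. A second entry that also carries the symbol Aldoa (ENSMUSG00000114515) held 10 to 27 counts in a library, changed in 0 of 11 comparisons and was left out of the set.

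The 18 libraries came from 6 groups of 3 biological replicates. A control arm was sampled at 0 d, 3 d and 7 d, and a periodontitis arm on the same days. Both arms had the tooth extracted, so that what separates them by label is periodontitis, in which inflammation destroys the gum, ligament and bone around a tooth. The sources used here do not give strain, age, sex, the way periodontitis was brought about or whether 0 d precedes the extraction. By its labels the tissue is the first molar, but the study's title speaks of extraction sockets. Markers of bone-forming cells were high everywhere, with a summed level of 5496 to 13999.8 CPM (counts scaled to a common TMM-adjusted library total) over 9 genes. Markers of the cells that form dentine and enamel were not: over the 4 measured of 6, the sum was 17.5 to 657 CPM in control at 0 d and at most 6.49 CPM in any periodontitis library.

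Glycolysis splits glucose into pyruvate, which lactate dehydrogenase can turn into lactate, so that cells gain energy without oxygen. When oxygen is short, the prolyl hydroxylases encoded by Egln1 and Egln3 no longer mark HIF-1alpha, the product of Hif1a, for destruction, and HIF then binds a short DNA motif near its target genes. Those targets include most glycolytic enzyme genes as well as genes for vessel growth, pH control and collagen hydroxylation. In wounds, both low oxygen and the activation of immune cells are known to go with high expression of these genes.

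Libraries held 14139830 to 17763605 counts. Some of them carried markers of tissues that the labels do not name. Markers of autonomic ganglion neurons were abundant in 5 libraries (replicates 1 and 3 of periodontitis at 0 d, replicates 1 and 2 of periodontitis at 3 d, and replicate 2 of control at 3 d), and markers of skeletal muscle, with a sum of up to 1758 CPM, in 4 (periodontitis 0 d replicates 2 and 3, 3 d replicate 3 and 7 d replicate 1). The 8 measured erythroid markers summed to 10489 to 12316 CPM in control at 0 d and 3225 to 4089 CPM in periodontitis at 0 d, against 294 to 643 CPM and 149 to 268 CPM at 3 d. All 8 passed the test as lower at 3 d in each arm. Of 10 neutrophil markers, 5 fell and 1 rose from 0 d to 3 d in control, and 8 fell and 0 rose in periodontitis. Of 10 monocyte and macrophage markers, 2 fell and 7 rose in control, and 3 fell and 1 rose in periodontitis. Of 9 markers of bone-forming cells, 4 fell and 1 rose in control, and 2 fell and 2 rose in periodontitis. The part of these cell types in the changes described below was not tested beyond the fits without the neuron-rich or muscle-rich libraries and those with either marker list as a covariate. In bulk tissue, fewer cells of a type and less RNA per cell cannot be told apart.

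The core of the HIF binding motif, ACGTG, was looked up in the promoters of the set, from 250 bases before to 50 after each annotated start (RefSeq, GRCm38.p6). Windows were available for 35 members. The motif, on either strand, lay in at least 1 window of 25 of these 35 genes (71.4%). That compares with 21.8% of the 27025 genes in the promoter table and 27.4% of the 12825 genes with a window that were tested here. A gene with several windows has more places for a match. Counted by window, the motif lay in 56% of those of members, 19.6% of all and 23.6% of those of tested genes. For the enzymes this share was 45.5%. Members also had more CG dinucleotides, with a median of 22 in a window against 7 over all windows and 18 over those of tested genes, and the motif itself contains CG. By role it was found in 9 of 14 enzymes, 1 of 3 regulators, 3 of 3 transporters, 3 of 3 genes of oxygen sensing and 9 of 12 HIF targets. Pfkfb4, Pdk1, Car12, Adm, Eno1, Gpi1, Kdm3a, Pfkl, Pfkp and Tpi1 had none in these windows. The related motif GCGTG lay in 65.7% of members, 35.2% of all genes in the table and 51.6% of those tested. A letter match is a description and does not show binding.

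**Figure D1:**
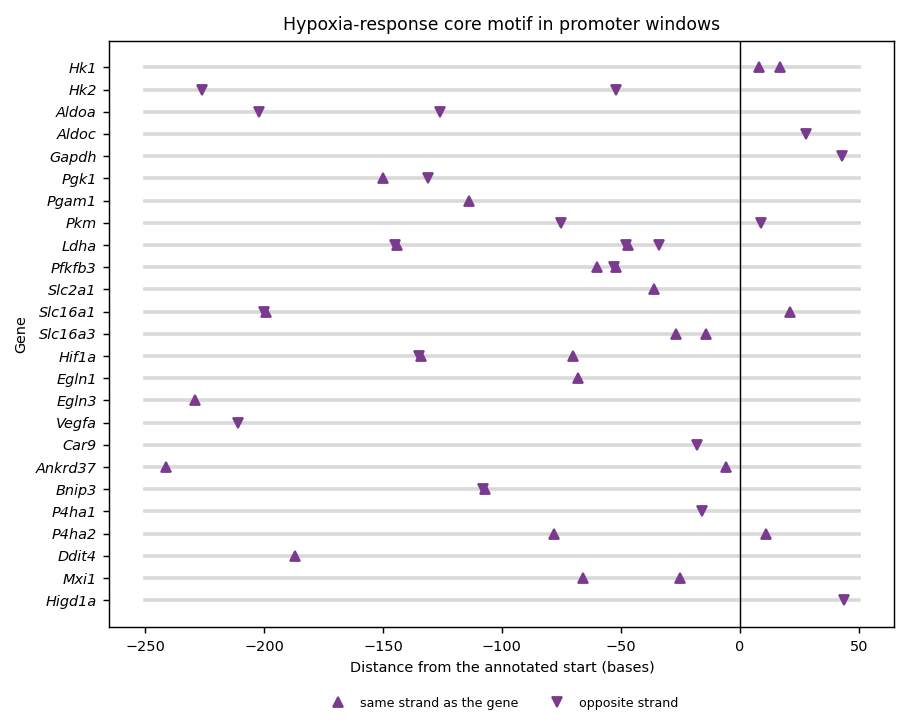
Position of ACGTG in the promoter windows of the 25 members that hold it, as the distance in bases from the annotated start (x axis, 0 at the start), 1 line a gene. Upward triangles are matches on the strand of the gene and downward triangles on the opposite strand. Windows of alternative starts of a gene are drawn on the same line.

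The 6 promoters printed here belong to members on which the changes with time turn: a glucose transporter, an enzyme and a regulator that fell early, a prolyl hydroxylase, and a pair of enzymes that fell late. They were picked among windows that hold the motif, and Pfkp and Pfkfb4, which also fell early, have none. Each runs 5′ to 3′ on the strand of the gene, and capitals mark ACGTG or its reverse complement CACGT. Slc2a1 is at chr4:119108495-119108794, plus strand, Hk2 at chr6:82774405-82774704, minus strand, Pfkfb3 at chr2:11502041-11502340, minus strand, Egln3 at chr12:54203825-54204124, minus strand, Ldha at chr7:46845554-46845853, plus strand, and Pgk1 at chrX:106186850-106187149, plus strand.
Slc2a1: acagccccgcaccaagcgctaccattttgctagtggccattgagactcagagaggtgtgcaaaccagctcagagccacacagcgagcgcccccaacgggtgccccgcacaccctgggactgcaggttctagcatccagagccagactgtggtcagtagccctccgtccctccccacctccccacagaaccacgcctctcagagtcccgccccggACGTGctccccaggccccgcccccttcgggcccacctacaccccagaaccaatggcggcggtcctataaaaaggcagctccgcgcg
Hk2: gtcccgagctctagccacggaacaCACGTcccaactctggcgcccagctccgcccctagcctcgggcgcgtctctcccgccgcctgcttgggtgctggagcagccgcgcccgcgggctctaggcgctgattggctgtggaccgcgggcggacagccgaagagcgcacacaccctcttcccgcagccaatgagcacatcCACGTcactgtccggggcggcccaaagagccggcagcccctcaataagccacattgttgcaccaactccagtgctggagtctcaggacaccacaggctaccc
Pfkfb3: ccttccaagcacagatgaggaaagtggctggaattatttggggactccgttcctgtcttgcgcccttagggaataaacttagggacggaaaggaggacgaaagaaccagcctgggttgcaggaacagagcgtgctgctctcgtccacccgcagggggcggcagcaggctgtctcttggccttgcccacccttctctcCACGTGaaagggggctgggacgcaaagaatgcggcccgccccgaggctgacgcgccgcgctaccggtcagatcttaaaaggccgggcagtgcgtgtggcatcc
Egln3: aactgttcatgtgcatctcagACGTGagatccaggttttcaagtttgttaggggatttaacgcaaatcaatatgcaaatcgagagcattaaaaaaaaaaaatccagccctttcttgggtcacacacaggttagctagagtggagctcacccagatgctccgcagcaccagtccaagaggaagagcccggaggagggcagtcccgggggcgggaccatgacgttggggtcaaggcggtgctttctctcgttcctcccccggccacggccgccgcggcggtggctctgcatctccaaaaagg
Ldha: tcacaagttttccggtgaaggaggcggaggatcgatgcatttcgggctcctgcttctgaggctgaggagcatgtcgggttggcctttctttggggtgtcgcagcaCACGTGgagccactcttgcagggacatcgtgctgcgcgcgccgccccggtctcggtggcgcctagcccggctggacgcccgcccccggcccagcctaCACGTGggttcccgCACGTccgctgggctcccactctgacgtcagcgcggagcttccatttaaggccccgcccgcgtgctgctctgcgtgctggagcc
Pgk1: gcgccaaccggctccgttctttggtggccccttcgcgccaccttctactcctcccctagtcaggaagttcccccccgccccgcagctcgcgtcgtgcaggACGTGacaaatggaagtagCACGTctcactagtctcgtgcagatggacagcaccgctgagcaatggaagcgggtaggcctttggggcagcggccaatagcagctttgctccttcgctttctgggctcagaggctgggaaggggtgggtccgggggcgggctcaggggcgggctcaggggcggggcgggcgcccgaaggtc
The Ldha window held 5 matches, counting both strands of the palindrome CACGTG separately. That palindrome was present in windows of 5 members: Ldha, Pfkfb3, Slc16a1, Hif1a and Bnip3.

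The set moved in steps. From 0 d to 3 d, the glucose transporters Slc2a1 and Slc2a3, the lactate transporter Slc16a1, the enzymes Hk2 and Pfkp, the regulators Pfkfb3 and Pfkfb4, Hif1a and 4 of 13 HIF targets fell in both arms. Hk1 and Pfkl, isoforms of Hk2 and Pfkp, did not pass. From 3 d to 7 d, 11 of 14 enzymes fell in each arm. In control, 14 members fell and 5 rose between 0 d and 3 d (background 18.3% and 16.4% of 18697 genes tested; 37.8% and 13.5% of members). In periodontitis, 12 fell and 2 rose (background 12.2% and 9.02%; 32.4% and 5.41% of members). The same 12 genes fell in both arms: Hk2, Pfkp, Pfkfb3, Pfkfb4, Slc2a1, Slc2a3, Slc16a1, Hif1a, Vegfa, Adm, Ndrg1 and Mxi1. Tpi1 and Pdk1 rose in both, but each periodontitis call was lost when some single library was left out. The 5 rises in control became 3 without any 1 of control 0 d replicates 1 and 2 and control 3 d replicates 1, 2 and 3, without the neuron-rich or the muscle-rich libraries, and with the neuron list as a covariate, and 2 with the muscle list; 4 were left without control 0 d replicate 3. The 14 calls in periodontitis became 9 without periodontitis 3 d replicate 3. Without the 5 neuron-rich or the 4 muscle-rich libraries, periodontitis at 0 d keeps a single library, so these calls could not be checked in that way. Changes are log2 fold changes ± SE, and each adjusted p comes from the quasi-likelihood test of edgeR, adjusted by Benjamini-Hochberg over all genes tested.

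**Figure D2:**
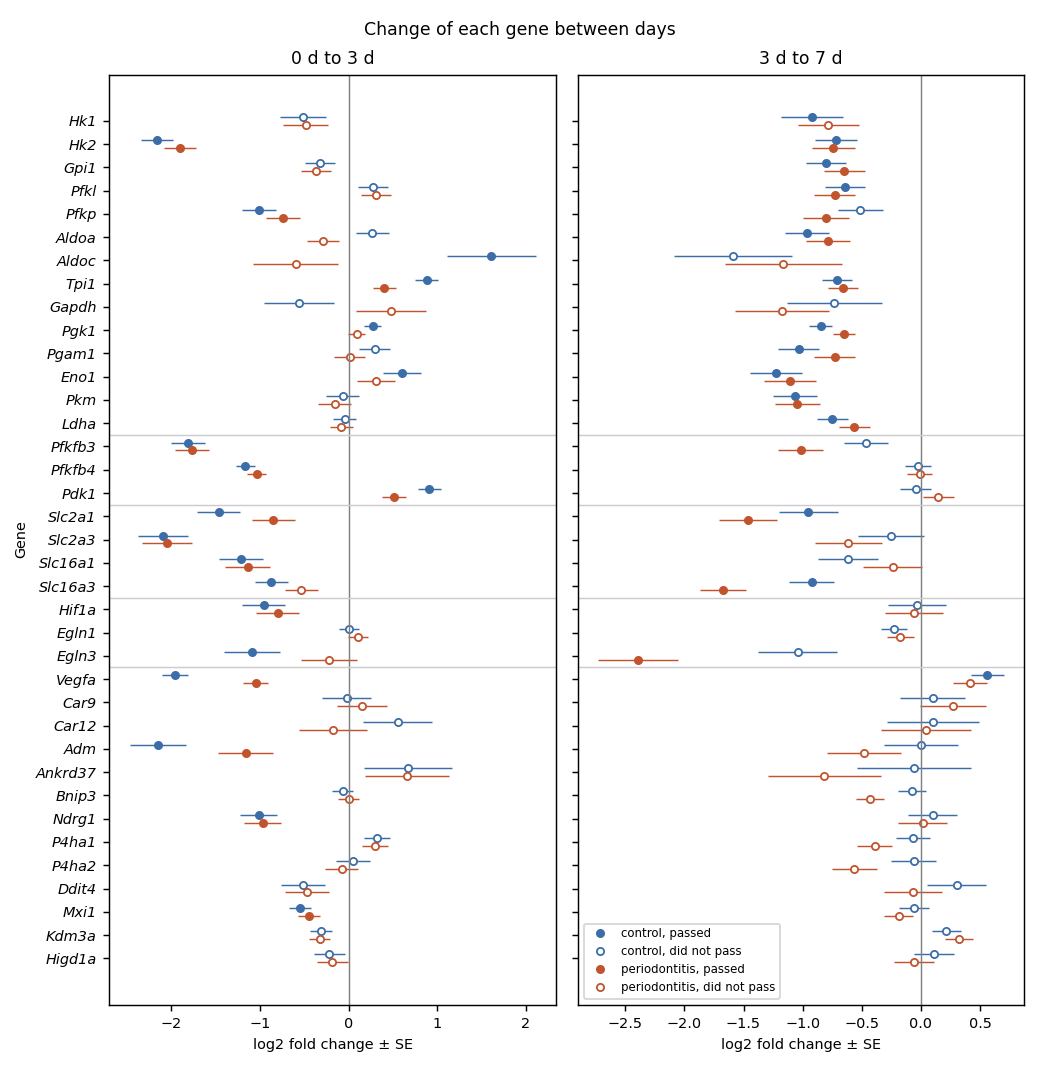
Log2 fold change ± SE of each of the 37 genes from 0 d to 3 d (left) and from 3 d to 7 d (right), ordered by role, in control (blue) and periodontitis (orange), 3 libraries per group. Filled points passed the test at an adjusted p of 0.05 and open points did not; the fall of the enzymes, in the upper block, lies in the right panel.

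Among the enzymes, the early fall was that of Hk2, the inducible hexokinase that traps glucose in the cell by phosphorylation. Hk2 was at 172, 154 and 135 CPM in the control replicates 1 to 3 at 0 d and at 29.3, 38.2 and 35.2 CPM at 3 d. In periodontitis it was at 118, 164 and 139 CPM and then at 35.3, 39.4 and 37.8 CPM. All 6 libraries of 0 d were above all 6 of 3 d, and Hk2 fell by 2.16 ± 0.18 in control (adjusted p = 7.85e-07) and by 1.91 ± 0.18 in periodontitis (adjusted p = 5.45e-06). Pfkp, the platelet-type subunit of phosphofructokinase, was at 146, 133 and 118 CPM in control at 0 d and at 58.8, 86.2 and 51.4 CPM at 3 d. Its periodontitis values were 157, 105 and 129 CPM and 82.6, 87.6 and 63.8 CPM. Pfkp fell by 1.02 ± 0.19 in control (adjusted p = 0.000726) and by 0.74 ± 0.19 in periodontitis (adjusted p = 0.0112), without overlap of days in either arm.

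Tpi1, the isomerase that interconverts the triose phosphates, moved the other way. It was at 109, 106 and 128 CPM in control at 0 d and at 213, 215 and 205 CPM at 3 d. In periodontitis the levels were 173, 122 and 159 CPM and 191, 202 and 207 CPM. Tpi1 rose by 0.88 ± 0.13 in control (adjusted p = 0.000107) and by 0.40 ± 0.13 in periodontitis (adjusted p = 0.0361), and the days did not overlap. In control, 3 more enzymes rose by day 3: Eno1, an enolase (0.60 ± 0.22, adjusted p = 0.0421), Pgk1, which makes the first ATP of the pathway (0.27 ± 0.10, adjusted p = 0.0378), and Aldoc, the brain form of aldolase (1.61 ± 0.50, adjusted p = 0.0200). Aldoc was at 2.05, 3.89 and 3.23 CPM in control at 0 d and at 8.41, 14.1 and 5.52 CPM at 3 d; its highest value is in replicate 2, a neuron-rich library. The calls of Eno1, Pgk1 and Aldoc in control were each lost when some single library was left out, as was that of Tpi1 in periodontitis. Of 28 alternatives, some of which keep 1 periodontitis library of 0 d, 12 kept the periodontitis call of Tpi1. Eno1, Pgk1 and Aldoc did not pass in periodontitis, where the changes were 0.31, 0.09 and -0.60.

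All 3 regulators of glycolysis changed in both arms. Pfkfb3 makes fructose 2,6-bisphosphate, the strongest activator of phosphofructokinase. It was at 337, 282 and 244 CPM in control at 0 d and at 90.3, 77.6 and 77.5 CPM at 3 d. The periodontitis libraries were at 337, 560.0 and 335 CPM and then at 127, 119.9 and 115 CPM. Pfkfb3 fell by 1.81 ± 0.19 (adjusted p = 5.63e-06) and by 1.77 ± 0.19 (adjusted p = 1.40e-05), with every library of 0 d above every one of 3 d. Pfkfb4, a second enzyme of this kind, went from 86.9, 90.6 and 92.4 CPM to 38.5, 40.1 and 41.6 CPM in control and fell by 1.17 ± 0.11 (adjusted p = 1.77e-06). In periodontitis it went from 67.9, 86.7 and 69.7 CPM to 40.3, 33.5 and 35.3 CPM and fell by 1.04 ± 0.11 (adjusted p = 1.09e-05). Pdk1, the kinase that inhibits pyruvate dehydrogenase and so keeps pyruvate from the citric acid cycle, rose. Its control levels were 18.7, 19.4 and 19.95 CPM at 0 d and 38.4, 32.3 and 38.4 CPM at 3 d, a rise of 0.91 ± 0.13 (adjusted p = 0.000106). Its periodontitis levels were 22.8, 28.3 and 22.9 CPM and 33.3, 32.5 and 39.7 CPM, a rise of 0.51 ± 0.13 (adjusted p = 0.0121). The days did not overlap in either arm for Pfkfb4 or Pdk1.

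The transporters fell together, 4 of 4 in control and 3 of 4 in periodontitis. Slc2a1 (GLUT1) is the glucose transporter of most tissues. It stood at 90.9, 85.5 and 99.0 CPM in control at 0 d and 30.9, 37.4 and 31.5 CPM at 3 d, and at 86.3, 102 and 104 CPM and 52.9, 59.5 and 49.7 CPM in periodontitis. The falls were 1.47 ± 0.24 (adjusted p = 0.000296) and 0.85 ± 0.24 (adjusted p = 0.0193), without overlap of days. Slc2a3 (GLUT3), the high-affinity glucose transporter of neurons and white blood cells, was at 161, 217 and 276 CPM and then 37.3, 64.7 and 51.3 CPM in control. In periodontitis it was at 147, 220.3 and 175 CPM and then 45.2, 51.8 and 34.1 CPM. Slc2a3 fell by 2.09 ± 0.29 (adjusted p = 5.74e-05) and by 2.05 ± 0.29 (adjusted p = 0.000132), again without overlap.

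Both monocarboxylate transporters carry lactate across the cell membrane. Slc16a1 (MCT1) was at 94.8, 89.8 and 108 CPM and then 47.1, 33.8 and 44.9 CPM in control, and fell by 1.22 ± 0.25 (adjusted p = 0.00144). In periodontitis it was at 73.3, 92.7 and 85.8 CPM and then 32.3, 39.8 and 42.0 CPM, and fell by 1.14 ± 0.25 (adjusted p = 0.00433). The days stayed apart in each arm. Slc16a3 (MCT4), the lactate exporter of glycolytic cells, was at 103, 101 and 115 CPM and 53.3, 53.1 and 68.5 CPM in control, a fall of 0.87 ± 0.19 (adjusted p = 0.00204). In periodontitis the libraries were at 117, 149 and 138 CPM and 83.7, 106 and 89.0 CPM. They did not overlap between days either, but the difference of -0.53 ± 0.19 did not pass by edgeR's quasi-likelihood test (adjusted p = 0.0521). DESeq2 called Slc16a3 lower here.

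Of the oxygen-sensing genes, Hif1a fell in both arms. Its control levels were 299.6, 269 and 280.2 CPM at 0 d and 164, 122 and 151 CPM at 3 d, a fall of 0.96 ± 0.24 (adjusted p = 0.00646). Its periodontitis levels were 295, 444 and 265 CPM and 179, 180.3 and 217 CPM, a fall of 0.80 ± 0.24 (adjusted p = 0.0282). HIF-1alpha is controlled mainly as a protein, which these data do not measure. Egln3, a prolyl hydroxylase that is itself a HIF target, was at 4.83, 6.09 and 12.4 CPM and then 3.73, 2.902 and 4.34 CPM in control and fell by 1.09 ± 0.32 (adjusted p = 0.0151). In periodontitis Egln3 was at 9.07, 15.5 and 11.98 CPM and 10.995, 10.7 and 9.62 CPM; the days overlapped and the difference was -0.22 ± 0.31 (adjusted p = 0.649). Egln1, the main prolyl hydroxylase, differed by 0.00 and 0.10 and did not pass.

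Of the 13 HIF targets, 4 fell in both arms and 0 rose. These 4 are 30.8% of the targets, where 18.3% of all genes fell in control and 12.2% in periodontitis. Of all genes, 16.4% and 9.02% rose. Vegfa encodes the main growth factor for blood vessels. It was at 613, 472 and 451 CPM in control at 0 d and 131, 133 and 129 CPM at 3 d. In periodontitis it was at 359, 392 and 364 CPM and 191, 171 and 176 CPM. Vegfa fell by 1.96 ± 0.15 in control (adjusted p = 3.03e-07) and by 1.05 ± 0.14 in periodontitis (adjusted p = 9.44e-05), and in each arm all libraries of 0 d were higher. Adm, which encodes the vessel-widening peptide adrenomedullin, was at 10.8, 10.4 and 7.14 CPM and then 2.06, 2.18 and 2.11 CPM in control. Its periodontitis levels were 8.53, 5.64 and 6.02 CPM and 3.37, 2.78 and 2.86 CPM. Adm fell by 2.15 ± 0.32 (adjusted p = 0.000111) and by 1.16 ± 0.31 (adjusted p = 0.0139).

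The other two were lower by smaller amounts. Ndrg1, a stress-response gene, went from 222, 193 and 139 CPM to 81.8, 103 and 89.7 CPM in control, a fall of 1.01 ± 0.21 (adjusted p = 0.00147). In periodontitis it went from 182, 212 and 165 CPM to 104, 95.1 and 86.4 CPM, a fall of 0.97 ± 0.21 (adjusted p = 0.00385). Mxi1, an antagonist of Myc, fell by 0.55 ± 0.12 (adjusted p = 0.00302) from 60.2, 60.3 and 68.8 CPM to 40.5, 40.4 and 48.8 CPM in control. Its periodontitis levels were 51.4, 63.5 and 55.8 CPM and 42.6, 39.3 and 43.5 CPM, a fall of 0.44 ± 0.12 (adjusted p = 0.0187). For Adm, Ndrg1 and Mxi1 the days did not overlap within an arm. The 9 targets that did not pass included Kdm3a, a histone demethylase (-0.31 and -0.33), and P4ha1, a subunit of the collagen prolyl hydroxylase (0.32 and 0.30). DESeq2 called 5 targets lower in each arm: Vegfa, Adm, Ndrg1, Mxi1 and Kdm3a.

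**Figure D3:**
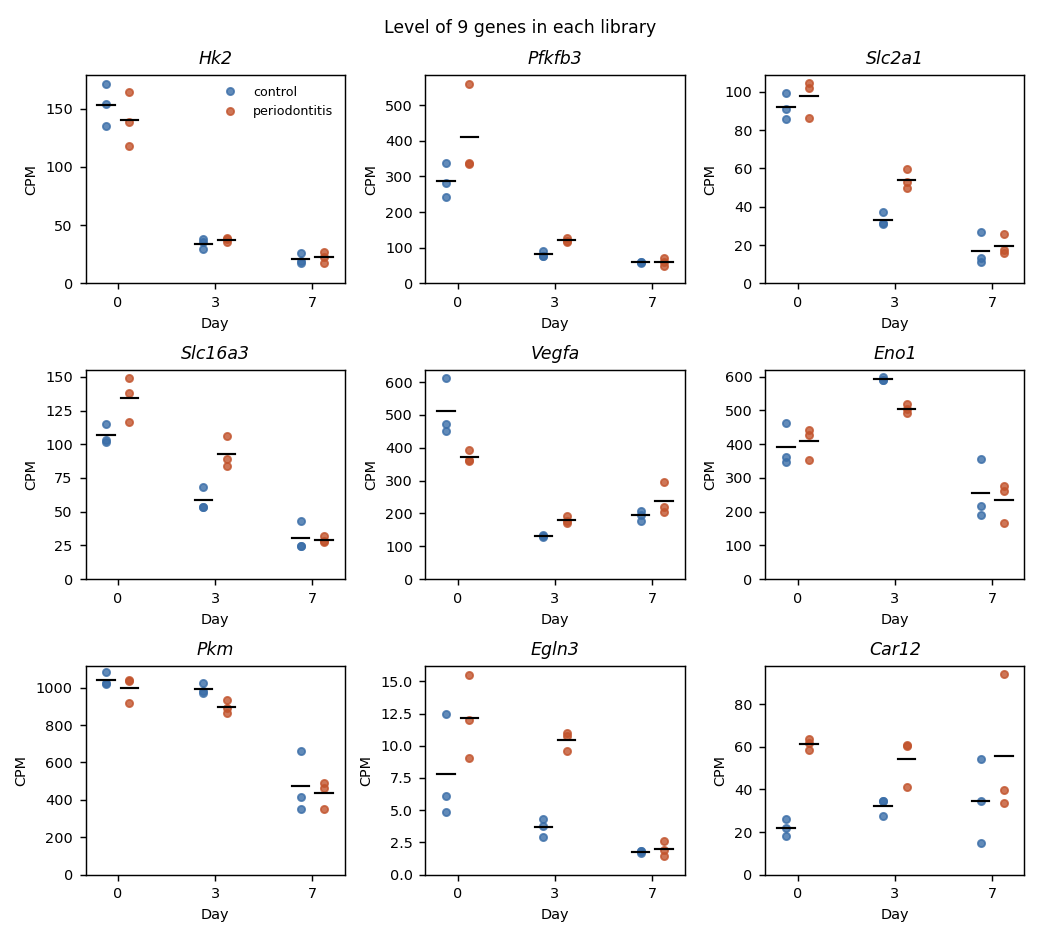
Level in CPM of 9 members in each library (y axes from 0), by day, in control (blue) and periodontitis (orange); points are libraries and bars are means of 3. Hk2, Pfkfb3, Slc2a1 and Vegfa drop between 0 d and 3 d, whereas Eno1 and Pkm drop between 3 d and 7 d.

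Between 3 d and 7 d most calls were of enzymes. Of the 14, 11 fell in control and 11 in periodontitis, 10 of them in both: Hk2, Gpi1, Pfkl, Aldoa, Tpi1, Pgk1, Pgam1, Eno1, Pkm and Ldha. Over the whole set, 13 members fell and 1 rose in control (background 5.87% and 4.99%; 35.1% and 2.70% of members), and 15 fell and 0 rose in periodontitis (background 2.63% and 2.17%; 40.5% and 0% of members). The median change of the members was -0.46 in control and -0.61 in periodontitis, with -0.01 and 0.02 over all genes tested. These counts were smaller without some libraries. Without the 5 neuron-rich libraries 2 members passed in control. In periodontitis that fit rests on a single library of 3 d that is assumed to vary like the other groups, so its count is not read as a check. Leaving out single libraries gave 7 to 17 calls in control, the fewest without 7 d replicate 2 or 3. In periodontitis it gave 4 to 17, the fewest without 3 d replicate 2. Calls kept in every such omission in control were those of Aldoa, Eno1, Ldha, Pgam1, Pgk1, Pkm and Tpi1. In periodontitis they were those of Egln3, Pgk1, Slc16a3 and Slc2a1. Pgk1 was thus the only enzyme whose periodontitis call did not depend on some single library. Within 7 d, control replicates 2 and 3 and periodontitis replicate 2 had the lowest enzyme sums (1659 to 1779 CPM, against 2046 to 2628 CPM in the other 7 d libraries and 3383 CPM or more at 3 d). The same 3 libraries had the lowest sums of 6 endothelial markers (367 to 449 CPM against 591 to 656 CPM) the most genes detected and the lowest share of Col1a1 reads at 7 d, and the part of this in the fall was not tested.

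Pgk1 had the smallest p among the enzymes in both arms. It was at 251, 243 and 263 CPM in control at 3 d and 144, 134 and 143 CPM at 7 d. The periodontitis levels were 217, 232 and 241 CPM and 148, 154 and 137 CPM. Pgk1 fell by 0.85 ± 0.10 (adjusted p = 0.000633) and by 0.65 ± 0.10 (adjusted p = 0.00360), without overlap of days. Pkm, the pyruvate kinase of growing tissue and muscle, went from 981, 971 and 1025 CPM to 659, 416 and 349 CPM in control, a fall of 1.06 ± 0.19 (adjusted p = 0.00423). In periodontitis Pkm went from 862, 936 and 894 CPM to 489, 351 and 464 CPM, a fall of 1.05 ± 0.19 (adjusted p = 0.0105). Every library of 3 d was above every library of 7 d in both genes.

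Eno1 was at 590.2, 598 and 589 CPM in control at 3 d and 356, 216 and 189 CPM at 7 d, and fell by 1.22 ± 0.22 (adjusted p = 0.00453). In periodontitis it was at 491, 505 and 518 CPM and 261, 166 and 276 CPM, and fell by 1.11 ± 0.22 (adjusted p = 0.0155). Ldha, the lactate dehydrogenase subunit that favours lactate, went from 522, 484 and 542 CPM to 379.8, 274 and 268 CPM in control (-0.75 ± 0.13, adjusted p = 0.00408). In periodontitis it went from 443, 474 and 494 CPM to 344, 311 and 300.1 CPM (-0.56 ± 0.13, adjusted p = 0.0289). The days did not overlap for Eno1 or Ldha. Pgam1, which moves the phosphate of phosphoglycerate, fell by 1.03 ± 0.18 in control (adjusted p = 0.00371), from 153, 156 and 131 CPM to 91.0, 59.8 and 64.1 CPM. Its fall in periodontitis was 0.73 ± 0.17 (adjusted p = 0.0320). Tpi1 fell by 0.66 ± 0.13 in periodontitis (adjusted p = 0.0148), from 191, 202 and 207 CPM to 139, 119 and 122 CPM, and by 0.71 ± 0.13 in control (adjusted p = 0.00483).

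Gapdh, the enzyme often used as a reference gene, can hardly be read here. It was listed at 6.35 to 43.3 CPM, far under its neighbours in the pathway, and the highest value came from 1 library, periodontitis 3 d replicate 3, with 698 counts against 174 and 233 in the other replicates. The sources used here do not say how reads that match several places were counted, and the genome holds near-identical pseudogene copies of Gapdh. The 5 such copies in the table held at most 2 counts in a library, and the values of Gapdh are uncertain.

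Among the other roles, Slc16a3 and Slc2a1 fell again after 3 d. Slc16a3 went from 53.3, 53.1 and 68.5 CPM to 43.4, 24.4 and 24.5 CPM in control (-0.92 ± 0.19, adjusted p = 0.00875). In periodontitis it went from 83.7, 106 and 89.0 CPM to 31.6, 27.9 and 27.7 CPM (-1.68 ± 0.19, adjusted p = 0.000793). Days did not overlap in either arm. Slc2a1 reached 26.8, 11.4 and 13.3 CPM in control at 7 d (-0.95 ± 0.25, adjusted p = 0.0245). In periodontitis it reached 25.6, 15.6 and 17.7 CPM (-1.46 ± 0.25, adjusted p = 0.00722). Egln3 and Pfkfb3 fell in this interval in periodontitis. Egln3 reached 2.63, 1.88 and 1.44 CPM (-2.39 ± 0.34, adjusted p = 0.00283), against 1.85, 1.82 and 1.65 CPM in control, where the change was -1.04 ± 0.33 (adjusted p = 0.0567). Pfkfb3 reached 70.1, 47.6 and 61.1 CPM (-1.02 ± 0.19, adjusted p = 0.0115).

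Of the 13 HIF targets, 0 fell between 3 d and 7 d in either arm by edgeR's quasi-likelihood test, where 5.87% and 2.63% of all genes fell, so this count is near the background. At an unadjusted p under 0.05, 0 were lower and 1 higher in control, and 3 lower and 2 higher in periodontitis. These are 7.69% and 38.5% of the targets, against 27.9% and 27.3% of all genes. DESeq2 called 0 lower in control and 2 in periodontitis, Bnip3 and P4ha2, and Vegfa higher in both arms, beside 12 and 13 of the 14 enzymes lower. Vegfa rose in control, from 131, 133 and 129 CPM to 178, 209 and 195 CPM (0.56 ± 0.14, adjusted p = 0.0211). In periodontitis Vegfa was at 219, 295 and 204 CPM at 7 d, above every library of 3 d, with a difference of 0.41 ± 0.14 that did not pass (adjusted p = 0.0846). At 7 d it was still lower than at 0 d, with -1.40 ± 0.14 in control (adjusted p = 2.34e-06) and -0.64 ± 0.14 in periodontitis (adjusted p = 0.00274).

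Over the whole interval from 0 d to 7 d, 23 members fell and 1 rose in control (background 21.4% and 20%; 62.2% and 2.70% of members). In periodontitis 25 fell and 1 rose (background 20.7% and 18.3%, against 67.6% and 2.70% of members). Without the neuron-rich or the muscle-rich libraries, periodontitis at 0 d keeps a single library, so the periodontitis counts of those fits are not read as a check. The same 22 fell in both arms, among them 10 of 14 enzymes, all 4 transporters, Hif1a and Egln3, and 4 of 13 HIF targets. By arm, 30.8% of the HIF targets fell in control and 46.2% in periodontitis, and 78.6% of the enzymes in each. Bnip3 (-0.43 ± 0.12, adjusted p = 0.0111) and the collagen prolyl hydroxylase subunit P4ha2 (-0.64 ± 0.19, adjusted p = 0.0150) fell in periodontitis and not in control; the interactions did not pass for either. Pdk1 was the member that rose in both arms (0.87 ± 0.13 and 0.66 ± 0.13). Hk2, with -2.88 ± 0.19 in control (adjusted p = 3.78e-08), and Pfkfb3, with -2.78 ± 0.20 in periodontitis (adjusted p = 2.09e-07), had the largest falls of their arm.

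**Figure D4:**
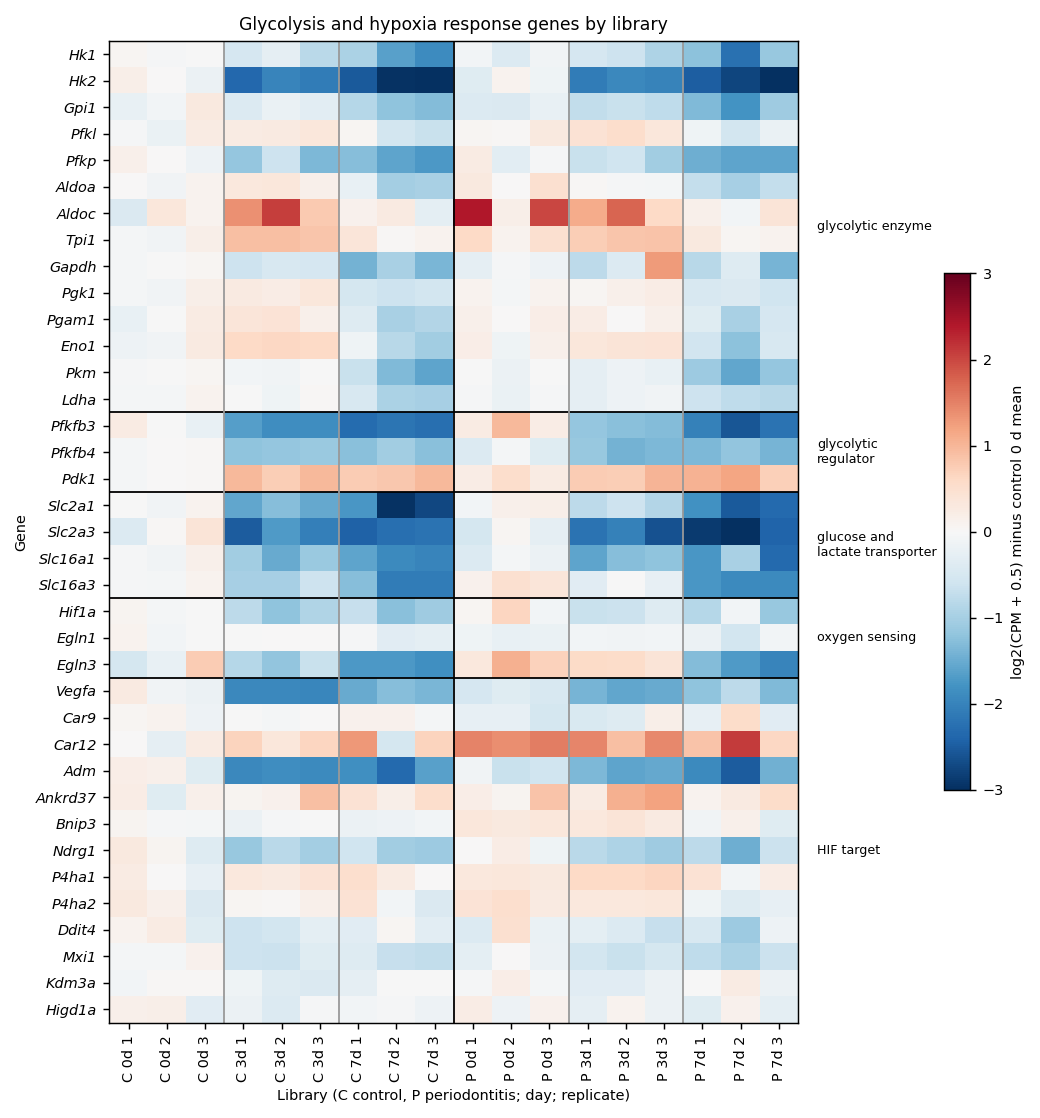
Level of the 37 members in each of the 18 libraries, as log2(CPM + 0.5) minus the mean of the control libraries of 0 d (colour, blue lower and red higher, cut at the ends of the scale). Genes are grouped by role and libraries by arm, day and replicate; the blue of the transporters and of Hk2 and Pfkfb3 begins at 3 d, that of most other enzymes at 7 d.

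Enzymes and HIF targets lay closest together at 7 d. The mean log2 CPM of the 14 enzymes in control was 7.12 ± 0.09 at 0 d, 7.08 ± 0.11 at 3 d and 6.18 ± 0.28 at 7 d (mean ± SD, n = 3). That of the 13 HIF targets was 5.22 ± 0.15, 4.82 ± 0.10 and 4.89 ± 0.14. In periodontitis the enzymes were at 7.24 ± 0.18, 7.02 ± 0.05 and 6.20 ± 0.16, and the targets at 5.35 ± 0.03, 5.06 ± 0.05 and 4.89 ± 0.03. The gap between the lists, computed in each library, was 1.91 ± 0.24, 2.26 ± 0.19 and 1.28 ± 0.18 in control and 1.89 ± 0.21, 1.96 ± 0.05 and 1.31 ± 0.19 in periodontitis. At 7 d the 6 libraries lay between 1.09 and 1.49, below all 12 earlier ones, of which the lowest was 1.65. A mean over genes of different abundance is a description, and the gap was not tested.

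**Figure D5:**
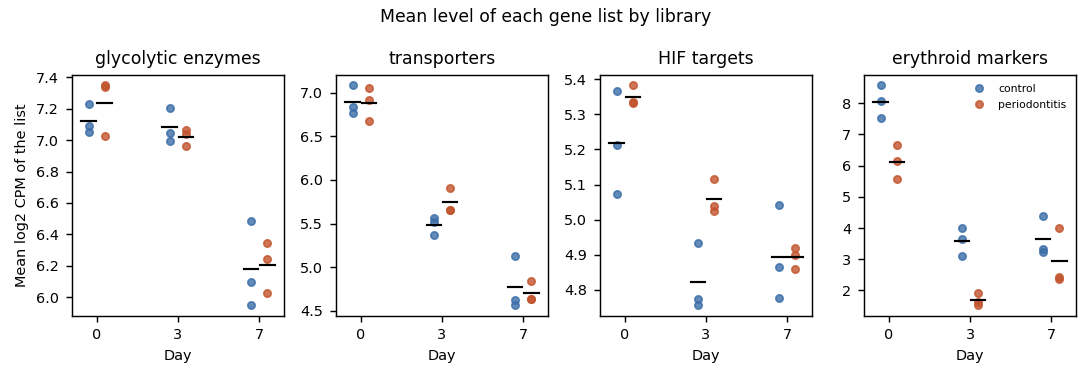
Mean log2 CPM of the 14 glycolytic enzymes, 4 transporters, 13 HIF targets and 8 measured erythroid markers in each library by day, in control (blue) and periodontitis (orange); bars are means of 3 libraries. The enzyme mean drops after 3 d, the transporter mean at both steps, and the erythroid mean between 0 d and 3 d.

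Few members passed between the arms. At 0 d, 2 of 37 members were higher in periodontitis and 0 lower (5.41% and 0%, background 4.81% and 3.47%). Car12, a membrane carbonic anhydrase that helps to control pH, was at 22.0, 18.1 and 25.9 CPM in control and 61.8, 58.5 and 63.8 CPM in periodontitis. All 3 periodontitis libraries were above all 3 of control, a difference of 1.48 ± 0.39 (adjusted p = 0.0355). Aldoc was at 2.05, 3.89 and 3.23 CPM in control and 17.7, 3.41 and 13.3 CPM in periodontitis, a difference of 1.91 ± 0.50 (adjusted p = 0.0340). The 13 measured neuron markers summed to 18.5 to 29.6 CPM in control and 61.0 to 2269.6 CPM in periodontitis at 0 d, with Th, Dbh and Chrna3 at 0 in control. The groups of Aldoc overlapped, and the high values were in the neuron-rich replicates 1 and 3, while replicate 2 lay within the control range. Without the 5 neuron-rich libraries the difference was 0.18 in Aldoc and 1.43 in Car12. That fit keeps replicate 2 alone in periodontitis at 0 d, so only the size of the difference is given. With the neuron list as a covariate Car12 differed by 1.59 (edgeR, adjusted p = 0.125), so its call was lost while the difference stayed of similar size. Each call was also lost when any 1 of the 3 control libraries of 0 d, or periodontitis replicate 1 or 3, was left out.

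At 3 d, 0 of 37 members passed between arms by edgeR's quasi-likelihood test (background 0.134% in either direction), and 8 had an unadjusted p under 0.05 (21.6%, and 8.26% of all genes); DESeq2 called 4. The smallest p belonged to Egln3, at 3.73, 2.902 and 4.34 CPM in control and 10.995, 10.7 and 9.62 CPM in periodontitis (1.51 ± 0.32, adjusted p = 0.0929). Slc16a3 followed, with 53.3, 53.1 and 68.5 CPM against 83.7, 106 and 89.0 CPM (0.67 ± 0.19, adjusted p = 0.196). Bnip3 was at 16.8, 18.6 and 18.9 CPM in control and 23.7, 25.1 and 22.9 CPM in periodontitis (0.40 ± 0.12, adjusted p = 0.234). In all 3 genes every periodontitis library was above every control library. The same held for 11 members in all (29.7%, background 9.16%): these 3 and Pfkfb3, Slc2a1, Hif1a, Vegfa, Car12, Adm, P4ha1 and P4ha2. In 6 members (16.2%, background 11.3%) every periodontitis library was lower, namely Gpi1, Aldoa, Pgk1, Eno1, Pkm and Egln1, with differences of -0.41 to -0.09. No single difference passed. Several sums of cell type markers also differed without overlap at 3 d. Neutrophil markers summed to 6185 to 7753 CPM in control and 3055 to 4170.0 CPM in periodontitis. Also lower in periodontitis were markers of monocytes and macrophages (1148 to 1360 against 885 to 1008 CPM), erythroid cells (294 to 643 against 149 to 268 CPM) and tooth-forming cells (33.0 to 94.3 against 0.284 to 1.99 CPM). Markers of bone-forming cells (5496 to 7164 against 8130 to 10013 CPM) and of skeletal muscle (12.3 to 18.0 against 18.6 to 269 CPM) were higher. A sum follows its most abundant markers. By mean log2 CPM, bone-forming markers (8.51 to 8.85 against 8.82 to 9.13) and muscle markers (-0.69 to -0.04 against -0.24 to 4.14) overlapped. Of single markers, 1 of monocytes and macrophages passed as higher and 1 of tooth-forming cells as lower. In the neutrophil, erythroid, bone-forming and muscle lists 0 passed. The part of these cell types in the differences was not tested. DESeq2 at 3 d called Slc16a3, Egln3, Vegfa and Bnip3, all higher, beside 291 of all genes. At 0 d, 5 members were higher without overlap and 5 lower (13.5% each, background 12.7% and 15.3%).

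At 7 d, 0 of 37 members passed (background 0%), by edgeR's quasi-likelihood test and by DESeq2, and 1 had an unadjusted p under 0.05 (2.70%, and 6.35% of all genes). The groups overlapped in all 37 members, while over all genes 3.57% were higher and 6.74% lower without overlap. The smallest p were those of Vegfa, at 178, 209 and 195 CPM and 219, 295 and 204 CPM (0.30 ± 0.14, adjusted p = 0.773), Slc2a3, at 39.4, 43.7 and 45.6 CPM and 28.5, 17.005 and 40.1 CPM (-0.59 ± 0.28, adjusted p = 0.799), and Car12, at 54.4, 14.9 and 34.7 CPM and 39.9, 94.3 and 33.6 CPM (0.69 ± 0.39, adjusted p = 0.866), in control and periodontitis respectively.

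Whether the change with time differed between arms was tested as an interaction, which called 0 of 37 members from 0 d to 3 d and 0 from 0 d to 7 d (background 0.016% and 0.0428% in either direction); 5 and 4 had an unadjusted p under 0.05 (13.5% and 10.8%, and 11.9% and 16.0% of all genes). Vegfa came nearest to changing its order: it was lower in periodontitis at 0 d (-0.46 ± 0.14, adjusted p = 0.0529) and higher at 3 d (0.45 ± 0.14, adjusted p = 0.267), without overlap on either day. Its interaction was 0.91 ± 0.20 to 3 d (adjusted p = 0.161) and 0.76 ± 0.20 to 7 d (adjusted p = 0.114). DESeq2 called both, at 0.89 and 0.75 with adjusted p = 0.00222 and 0.00927.

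The balance between isoforms of a step was not the same on each day. Levels were set against each other per gene length of the deposited table, which need not be the length of the transcript expressed. The size of a share depends on it. By this measure Hk2 made up 53.0% ± 2.33 of Hk1 plus Hk2 in control at 0 d, 26.8% ± 4.13 at 3 d and 30.0% ± 2.66 at 7 d (SD, n = 3). The share in periodontitis was 54.1% ± 6.97, 30.9% ± 3.72 and 32.8% ± 10.7. Hk3, a hexokinase of white blood cells that is no member, is not part of this share; it was at 70.7, 92.5 and 146 CPM in control at 0 d and 31.2, 47.5 and 29.4 CPM at 7 d. Pfkp was 59.0% ± 5.96 of Pfkl plus Pfkp in control at 0 d and 36.6% ± 6.80 at 3 d, and 56.2% ± 5.13 and 38.4% ± 2.59 in periodontitis. Egln3 was 13.9% ± 6.33 of Egln1 plus Egln3 in control at 0 d, 7.13% ± 1.28 at 3 d and 4.21% ± 0.410 at 7 d. In periodontitis its share was 22.5% ± 5.13, 18.9% ± 1.15 and 4.84% ± 1.497. These shares were not tested.

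Per length, the most abundant members in control at 0 d were Pkm at 208 ± 7.05, Aldoa at 162 ± 12.1 and Ldha at 161 ± 10.4 CPM per kb (mean ± SD, n = 3). Ddit4, a stress-induced inhibitor of mTORC1, stood at 150.0 ± 31.1 and Vegfa at 119 ± 20.5 CPM per kb. Aldoa, Ldha and Ddit4 cannot be ordered beyond their spread, and levels per kb depend on the gene lengths of the deposited table. At 7 d Ddit4, which passed in no comparison, was at 129.6 ± 21.02 CPM per kb in control and 102 ± 31.4 in periodontitis, within its spread of Aldoa in control (100.1 ± 34.0) and Ldha in periodontitis (96.2 ± 6.88). At the low end in control at 0 d were Ankrd37 at 0.373 ± 0.142, Aldoc at 0.937 ± 0.285 and Car9, the carbonic anhydrase most used as a mark of hypoxia, at 1.47 ± 0.147 CPM per kb. Car9 passed in no comparison either, and its change from 0 d to 3 d was -0.02 ± 0.28 in control and 0.16 ± 0.28 in periodontitis.

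Other genes of the same pathways were counted in lists written with earlier results known. Of 30 further hypoxia genes, 17 fell and 1 rose from 0 d to 3 d in control (56.7% and 3.33%, background 18.3% and 16.4%), and 14 fell and 0 rose in periodontitis (46.7% and 0%, background 12.2% and 9.02%). The falls with the smallest p in control were those of Stc1, stanniocalcin (-3.18 ± 0.18, adjusted p = 3.50e-08), Errfi1, a brake on EGF receptors (-2.59 ± 0.25, adjusted p = 2.77e-06), and Angptl4, an inhibitor of lipoprotein lipase (-1.98 ± 0.21, adjusted p = 5.63e-06). In periodontitis the same 3 fell by 2.31 ± 0.18, 2.39 ± 0.25 and 2.14 ± 0.21. Of these 30 genes, 4 fell and 3 rose from 3 d to 7 d in control (13.3% and 10%, background 5.87% and 4.99%), and 5 fell and 2 rose in periodontitis (16.7% and 6.67%, background 2.63% and 2.17%). The further glycolysis list held 21 tested genes: isoforms, regulators, and genes of the pentose phosphate and glycogen pathways (G6pdx, Pgd, Gys1 and Pygl). From 0 d to 3 d, 5 fell and 5 rose in control (23.8% each, background 18.3% and 16.4%). In periodontitis 5 fell and 1 rose (23.8% and 4.76%, background 12.2% and 9.02%). The control shares are near their backgrounds. From 3 d to 7 d, 1 of the 21 fell in control and 0 in periodontitis (4.76% and 0%, background 5.87% and 2.63%). In each arm 0 rose (background 4.99% and 2.17%), so these counts are near the background. Of the 14 enzymes, 11 fell in each arm (78.6%). Whether the lists differ was not tested.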

How the data were processed

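RNA from the extraction site was sequenced in 18 libraries. Libraries were made with a NEBNext Ultra kit from RNA extracted with TRIzol, per the labels' protocols. The authors deposited raw read counts per gene, whole numbers that are not normalized. HISAT2, StringTie and SAMtools were used, per the submitters' processing notes; the sources used here do not give their versions, the counting program, its strand setting or its treatment of multiply matching reads. The notes list build mm9, but 98.3% of the gene identifiers found in GENCODE M21 have its GRCm38 coordinates, as do 35 of the 37 members.

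Genes were filtered with filterByExpr (18697 kept), scaled by TMM and tested with edgeR 4.0.16 (R 4.3.3; glmQLFit, glmQLFTest) in a model of 6 group means whose spread was estimated from all 18 libraries. P-values were adjusted by Benjamini-Hochberg over all genes tested in each of 11 comparisons and called under 0.05. SEs were derived from the F statistics, and log2 CPM used a prior count of 2. Lengths per gene are those of the deposited table. The pipeline was tested on simulated data. Alternatives were RLE factors, library totals, no filter, DESeq2 1.42.0, the compared groups alone, a replicate block, marker covariates, and leaving out libraries; leaving out the 4 muscle-rich libraries was added after the data had been seen. Replicate numbers only name samples. Replicates of a group differed by more than sampling noise (chi-square per gene of 9.29 or more). Per-library values are given for members called between arms, for up to 5 called members of a role with the smallest p in a change with time, and for the 3 members with the smallest p where none was called between arms; other members named were chosen after their values were seen. The members and lists were chosen with earlier results of these data known. Some gene results are not reported.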

Additional observations from a re-analysis of the deposited data

Results flagged for a closer look

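Bpgm, a gene of the further glycolysis list, had a change with time that differed between arms by a test of the difference itself. The enzyme makes 2,3-bisphosphoglycerate, which lowers the oxygen affinity of haemoglobin in red cells. It was at 168, 179.7 and 181 CPM in control at 0 d and at 76.9, 59.9 and 60.6 CPM in periodontitis, and between 22.0 and 36.8 CPM in all libraries of 3 d and 7 d. The interaction of edgeR's quasi-likelihood fit was 1.33 ± 0.17 from 0 d to 3 d (adjusted p = 0.00737) and 1.12 ± 0.17 from 0 d to 7 d (adjusted p = 0.0200). The summed erythroid markers were 10489 to 12316 CPM in control and 3225 to 4089 CPM in periodontitis at 0 d, and 149 to 874 CPM later. Their part in the difference of Bpgm was not tested.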

How the results depend on the processing

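Over all alternatives, the called changes of members kept their direction and call in 2897 cases and kept the direction without the call in 294. In 1 case the direction turned: Aldoc from 0 d to 7 d in periodontitis, at 0.00198 without the 5 neuron-rich libraries, against -1.76. Many of these cases leave out a library of a group that is not compared, and some keep a single library in a compared group. The tally is therefore no measure of how firm a call is. DESeq2 called 6 members between arms at 0 d in place of 2, beside 2686 of all genes in place of 1547. At 3 d it called 4 members in place of 0, beside 291 genes in place of 25, and in each interaction 1 member in place of 0. A fit of the compared groups alone called 1 at 0 d and 4 at 3 d, beside 65 and 149 of all genes. Without the filter on low counts, 1 was called at 3 d, beside 133 of all genes. With the muscle list as a covariate, 1 member was called between arms at 0 d, beside 1149 of all genes, and 9 in place of 14 from 0 d to 3 d in periodontitis. With the neuron list as a covariate, 0 were called at 0 d, beside 198 of all genes, and 7 in place of 15 from 3 d to 7 d in periodontitis. Calls over all genes thus moved with the setting as well.

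Without the 5 neuron-rich libraries, 0 were called between arms at 0 d, 2 in place of 14 from 3 d to 7 d in control, and in periodontitis 4 in place of 14 from 0 d to 3 d, 1 in place of 15 from 3 d to 7 d and 13 in place of 26 from 0 d to 7 d. Without the 4 muscle-rich libraries, the periodontitis counts were 4, 4 and 17. In both cases fewer libraries were fitted. Both fits keep a single library of periodontitis at 0 d, and the fit without the neuron-rich libraries also keeps a single one at 3 d. Such a group is assumed to vary like the others. Counts of comparisons that use such a group are listed for completeness and do not show whether a call holds. The control count and, without the muscle-rich libraries, the periodontitis count from 3 d to 7 d do not use such a group.

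Leaving out 1 library at a time gave 0 to 4 calls between arms at 0 d, 0 to 1 at 3 d and 0 at 7 d. In control it gave 16 to 20 from 0 d to 3 d, 7 to 17 from 3 d to 7 d and 22 to 25 from 0 d to 7 d. In periodontitis it gave 9 to 15, 4 to 17 and 25 to 27, and in the interactions 0 to 1 and 0. For 3 d to 7 d in control the count was 9 without 3 d replicate 2 and 7 without 7 d replicate 2 or 3. For periodontitis it was 7, 4 and 9 without 3 d replicates 1, 2 and 3 and 9 without 7 d replicate 2, and from 0 d to 3 d 9 without 3 d replicate 3. Between arms at 0 d it was 4 without periodontitis 0 d replicate 2 or 7 d replicate 2. Calls that survived every such omission numbered 15 of 19, 7 of 14 and 21 of 24 in control, and 7 of 14, 4 of 15 and 23 of 26 in periodontitis (0 d to 3 d, 3 d to 7 d and 0 d to 7 d). 

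A replicate block changed no count of members: 2, 0 and 0 between arms, 19, 14 and 24 in control, 14, 15 and 26 in periodontitis and 0 in each interaction. Deviations of same-numbered samples correlated at r = -0.53 to 0.66 over 27 pairs, of which 6 were over 0.1, so the numbers were not read as a pairing. Scaling by library totals moved the median change of all genes by 0.12 and 0.14 from 0 d to 3 d and to 7 d in control and by 0.13 from 0 d to 7 d in periodontitis. With 3 libraries a group, members near 1 CPM such as Ankrd37 are imprecise.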
